A study of Mus musculus with 12 samples.

Results

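The epidermal regulators described here are 10 genes chosen by name for their known roles in the differentiation of keratinocytes, the epithelial cells of the epidermis, and not by a threshold on their values: Trp63, Grhl3, Ovol1, Klf4, Zfp750, Gata3, Notch1, Hes1, Prdm1 and Cebpa. They are 10 of 56923 genes in the count table, and all 10 were among the 18529 genes with enough reads to test. The data are bulk RNA-seq of back skin from 12 female C57BL/6 mice between 8 and 10 weeks of age, with 3 animals in each of 4 groups. WT littermates received a vehicle (WT control) or 5% imiquimod (IMQ) cream (WT IMQ), a cream that produces psoriasis-like lesions, on the shaved back for 6 days. Mice labelled Lcn2-/- received the same vehicle (KO-labelled control) or the same IMQ cream (KO-labelled IMQ). The study's methods describe a knockout and a Vaseline vehicle. The sample titles read LCN2 KO, while other label text speaks of an LCN2 knockdown and of no treatment. Nothing in the labels says that any 2 libraries share an animal, and p-values measure the spread between these mice.

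Keratinocytes of the basal layer divide, leave the layer and mature on their way to the surface, where they build the cornified barrier. The basal state depends on p63, the product of Trp63. Notch signalling commits cells to leave that state, and further up factors such as Klf4, Grhl3, Zfp750, Ovol1 and Prdm1 switch on barrier genes or switch off genes of the progenitor state. Several of the 10 genes also act in other cells of the skin: Gata3 in T cells, innate lymphoid cells and the inner root sheath of the hair follicle, Prdm1 in plasma cells and sebaceous glands, and Cebpa in adipocytes, sebocytes and myeloid cells. In bulk skin, fewer cells of a type and less RNA per cell cannot be told apart.

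Library totals lay between 16448226 and 28592110 counts, so that 3 counts corresponded to 0.105 to 0.182 CPM (a gene's count relative to the total of its library, with totals scaled between libraries by edgeR's TMM method). That floor covers counting error only. Every member was far above it, with the lowest value at 21.5 CPM (Ovol1 in WT control mouse 2). Lcn2 itself was counted at 4.57 to 8.64 CPM in the WT control mice and 61.2 to 183 CPM in the WT IMQ mice, against 9.22 to 15.9 CPM in the KO-labelled control mice and 29.9 to 49.8 CPM in the KO-labelled IMQ mice. Lcn2 reads were thus present in every library labelled Lcn2-/-, and these libraries are called KO-labelled throughout for that reason. Each direction between genotypes below is a direction between labels. Under IMQ all KO-labelled mice were nonetheless below all WT mice (log2 fold change -1.49 ± 0.40, adjusted p = 0.0525 by edgeR). The study reported Lcn2 among the genes downregulated in Lcn2-/- mice under IMQ. The part of Lcn2 that was deleted is not given in the sources used here, so reads outside it may have been counted. All 12 pan-epithelial markers, the keratinocyte keratin Krt5 among them, had reads in every mouse. The label text on RNA extraction names retinas, and of 10 retina markers only 2 passed the filter on low counts, Nrl and Crx had no read in any mouse, and their summed level was 0.471 to 3.03 CPM.

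The first question was which of the regulators responded to IMQ in WT skin. Grhl3, Klf4, Ovol1, Prdm1 and Trp63 rose, Gata3 fell, and Zfp750, Notch1, Hes1 and Cebpa did not pass the test. The 5 called higher (edgeR's quasi-likelihood test, adjusted p under 0.05 over all genes tested) stand beside 14.2% of all genes tested that were called higher, and the 1 called lower beside 14.3% called lower. By ranges alone, 6 members had all IMQ mice above all control mice (20.1% of all genes did) and 1 had all IMQ mice below (20.6%). The median log2 fold change of the 10 was 0.66, against -0.02 for all genes tested.

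Among the regulators of the upper layers, Grhl3, a Grainyhead-like factor required for barrier formation and for closure of epidermal wounds (GRCm38 chromosome 4, 135541888 to 135573630, minus strand), had the widest change. It was measured at 33.5, 27.9 and 42.5 CPM in the WT control mice and at 264, 184 and 215 CPM in the WT IMQ mice. The lowest IMQ mouse was thus far above the highest control mouse, and the log2 fold change was 2.68 ± 0.20 (SE, adjusted p = 4.71e-06, a 6.4-fold rise). Of all genes tested, 97.8% had a lower log2 fold change than Grhl3. Klf4, a Krüppel-like factor of the differentiating layers (chromosome 4, 55527143 to 55532466, minus strand), went from 246, 300.3 and 222 CPM to 735, 606 and 609.8 CPM. No mouse of one group reached the other, and the log2 fold change was 1.35 ± 0.14 (adjusted p = 3.67e-05).

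Ovol1, a zinc finger repressor that restrains proliferation as cells differentiate (chromosome 19, 5549136 to 5560646, minus strand), was at 42.5, 21.5 and 43.7 CPM in the controls and 148, 79.9 and 107 CPM under IMQ, a log2 fold change of 1.64 ± 0.34 (adjusted p = 0.00423). The groups did not overlap, although the spread within each was wide (SD 12.5 CPM for the controls and 34.5 CPM under IMQ). Ovol1 shares 690 exon bases with a pseudogene on the other strand, Gm31166, which had 64 to 331 counts per mouse. Whether the counting used strand is not given in the sources used here. Prdm1, which encodes the repressor Blimp1 of the granular layer (chromosome 10, 44437177 to 44528501, minus strand), rose from 29.7, 25.8 and 29.6 CPM to 76.0, 58.1 and 55.5 CPM, a log2 fold change of 1.16 ± 0.18 (adjusted p = 0.000782). Its control mice lay close together and well below all IMQ mice. Zfp750, a target of p63 that induces terminal differentiation genes (chromosome 11, 121510978 to 121519333, minus strand), was at 119, 71.3 and 127 CPM and then 187, 154 and 184 CPM. Every IMQ mouse was above every control mouse, but with a log2 fold change of 0.73 ± 0.28 the adjusted p was 0.074 in edgeR and 0.0417 in DESeq2, the tool the study used.

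Trp63, which the basal layer depends on (chromosome 16, 25683763 to 25892102, plus strand), was at 228, 164 and 276 CPM in the WT control mice and 349.6, 309.6 and 343 CPM in the WT IMQ mice. The groups did not overlap, with a log2 fold change of 0.58 ± 0.19 (adjusted p = 0.0355). The direction turned relative to the mean of 12 pan-epithelial markers, 9 of which rose in WT IMQ skin themselves, as described below. That call also depended on single mice: it was lost without WT control mouse 1, WT control mouse 2, WT IMQ mouse 1 or WT IMQ mouse 3, with adjusted p between 0.0821 and 0.106. It was lost as well with library totals alone (0.41, adjusted p = 0.124), with the compared mice only (adjusted p = 0.0764) and with the replicate number as a block (adjusted p = 0.0543).

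Gata3, a factor of the epidermis and of the inner root sheath (chromosome 2, 9857078 to 9890034, minus strand), was the member that fell. It was measured at 101, 64.2 and 112 CPM in the WT control mice and at 23.7, 24.9 and 23.0 CPM in the WT IMQ mice. The IMQ mice were nearly alike (SD 0.974 CPM) and all were below the lowest control mouse. The log2 fold change was -1.95 ± 0.27 (adjusted p = 0.000367), a 3.87-fold fall. Gata3 is known for its role in lymphoid cells too, and 8 of 14 T and innate lymphoid cell markers also fell in WT IMQ skin, Cd3d (-2.60 ± 0.55, adjusted p = 0.00461), Cd3e (-2.17 ± 0.59, adjusted p = 0.0179) and Trac (-2.03 ± 0.50, adjusted p = 0.011) among them. The summed level of that list was 315 to 476 CPM in the WT control mice and 188 to 278 CPM in the WT IMQ mice. Thy1, which is among those that fell (-0.89 ± 0.21, adjusted p = 0.00833 by edgeR), is also on the list of fibroblast markers described below. In KO-labelled skin, where Gata3 fell as well, 2 of the 14 markers rose and 1 fell, and the summed levels were 256 to 399 CPM in the controls and 319 to 383 CPM under IMQ. There the median log2 fold change of the 14 was -0.82, with 10 genes below 0 and 4 above. In WT skin it was -1.39, with 11 below 0 and 3 above. The highest value of any gene of the list in any mouse was 324 CPM, so single genes can carry these sums. None of the 14 was at 0 in all mice. Of 16 hair follicle markers 5 fell in WT and 15 in KO-labelled skin. The inner root sheath keratin Krt28, for example, was at 255, 7.05 and 209 CPM in the WT control mice and 0.788, 0.672 and 3.92 CPM in the WT IMQ mice, with 51.2, 575 and 218 CPM in the KO-labelled control mice and 0.183, 3.98 and 0.66 CPM in the KO-labelled IMQ mice. The part of either marker list in the Gata3 result was not tested.

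Notch1, the receptor whose cleaved form drives cells out of the basal layer (chromosome 2, 26457903 to 26516663, minus strand), was at 144, 78.5 and 120 CPM in the WT control mice and 74.1, 79.99 and 73.5 CPM in the WT IMQ mice. The control range was wide and its lowest mouse lay within the IMQ range, and the log2 fold change of -0.59 ± 0.25 did not pass (adjusted p = 0.104). Hes1, the repressor that active Notch induces (chromosome 16, 30064384 to 30067796, plus strand), ranged from 36.0 to 60.3 CPM in the controls and from 32.9 to 47.6 CPM under IMQ, with a log2 fold change of -0.43 ± 0.23 (adjusted p = 0.174). Cebpa, which promotes cell cycle exit in the epidermis (chromosome 7, 35119293 to 35121928, plus strand), ranged from 155 to 171 CPM and from 114 to 172 CPM (log2 fold change -0.26 ± 0.15, adjusted p = 0.224). For all 3 the groups overlapped. Notch1 shares 1068 exon bases with 0610009E02Rik (4 to 18 counts per mouse) and Cebpa 51 with Gm45091 (6 to 52 counts per mouse), both on the other strand.

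**Figure D1:**
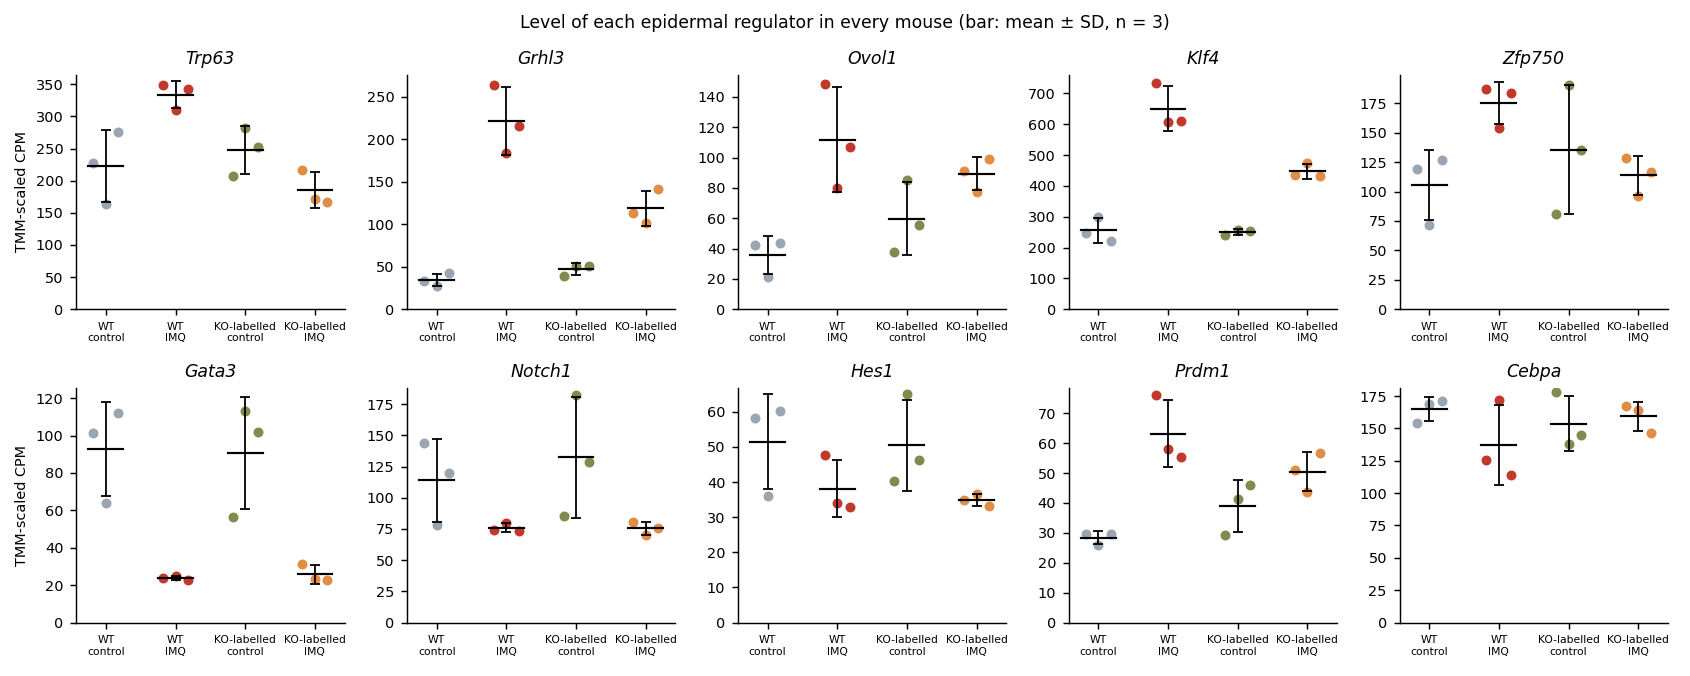
Each panel plots 1 regulator, with TMM-scaled CPM on the y axis from 0 and the 4 groups on the x axis; points are mice and the bar is the mean ± SD of 3. The 3 WT IMQ mice stand highest for Grhl3 (184 to 264 CPM) and Klf4 (606 to 735 CPM), with the KO-labelled IMQ mice between them and the controls, while all 6 IMQ mice are lowest for Gata3 (22.5 to 31.4 CPM).

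The stretch of 250 bases before the RefSeq start site (build GRCm38.p6) is shown for 4 members, 3 that rose in WT IMQ skin and Gata3, which fell, since these are the genes on which the responses turn. RefSeq promoter entries were held for 6 of the 10 members, and 4 (Trp63, Ovol1, Zfp750 and Hes1) had none in the table used. All are written 5′ to 3′ on the minus strand, the strand of the gene, and capitals mark matches to 6 motifs searched on both strands.
Grhl3, chr4:135573633-135573882: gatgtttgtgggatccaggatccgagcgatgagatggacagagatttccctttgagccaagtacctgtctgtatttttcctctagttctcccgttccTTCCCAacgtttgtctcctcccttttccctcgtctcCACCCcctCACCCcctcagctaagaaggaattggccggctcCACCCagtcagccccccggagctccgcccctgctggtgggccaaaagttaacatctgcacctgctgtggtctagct
Klf4, chr4:55532476-55532725: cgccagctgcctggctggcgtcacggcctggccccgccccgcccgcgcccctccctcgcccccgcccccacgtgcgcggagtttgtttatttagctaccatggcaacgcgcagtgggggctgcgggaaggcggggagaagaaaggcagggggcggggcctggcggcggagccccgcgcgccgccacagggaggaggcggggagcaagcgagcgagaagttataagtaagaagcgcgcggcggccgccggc
Prdm1, chr10:44458749-44458998: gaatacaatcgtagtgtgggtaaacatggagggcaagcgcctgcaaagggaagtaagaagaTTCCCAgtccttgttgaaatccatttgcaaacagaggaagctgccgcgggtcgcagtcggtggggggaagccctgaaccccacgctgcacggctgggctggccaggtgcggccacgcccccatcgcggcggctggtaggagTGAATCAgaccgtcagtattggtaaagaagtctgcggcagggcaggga
Gata3, chr2:9878601-9878850: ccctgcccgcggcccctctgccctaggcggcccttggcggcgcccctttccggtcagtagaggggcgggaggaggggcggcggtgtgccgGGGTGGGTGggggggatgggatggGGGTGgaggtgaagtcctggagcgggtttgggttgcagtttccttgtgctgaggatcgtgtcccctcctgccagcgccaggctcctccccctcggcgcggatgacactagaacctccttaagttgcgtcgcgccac
In Grhl3 the capitals mark CACCC, the core letters of a Krüppel-like factor site, at 117 to 113, 109 to 105 and 76 to 72 bases before the start, and TTCCCA, the reverse complement of the RBPJ letters TGGGAA (RBPJ is the DNA-binding partner of Notch), at 153 to 148. In Gata3 they mark CACCC on the other strand (GGGTG) at 160 to 156, 156 to 152 and 136 to 132, the first pair sharing 1 base. In Prdm1 they mark an AP-1 match (TGANTCA) at 48 to 42 and an RBPJ match at 189 to 184. Klf4, with 74% G and C and 32 CpG pairs, held no match to any of the 6. The RefSeq starts of Prdm1 and Gata3 used here lie inside the annotated genes.

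Such matches are common in the 32851 promoter entries of the table, which were searched in the same way. CACCC was present in 52% of them and in 4 of the 6 members (Gata3, Notch1, Grhl3 and Cebpa), the RBPJ letters in 21.6% and in 2 members, and the AP-1 letters in 6.75% and in 1 member. The Grainyhead-like letters AACCGGTT (0.116% of entries), the C/EBP letters TTGCNNAA (9.56%) and the GATA letters AGATAA (9.99%) were in none of the 6 members. A match describes the letters of the window only.

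The next comparison asked how the same regulators responded to IMQ in KO-labelled skin. Grhl3 and Klf4 rose, Gata3 and Notch1 fell, and the other 6 did not pass the test. The 2 called higher stand beside 14.1% of all genes tested and the 2 called lower beside 11.2%. Ranges did not overlap for 2 members that were higher (23.1% of all genes) and 3 that were lower (22.8%). The median log2 fold change of the 10 was -0.10, against -0.05 for all genes tested.

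Grhl3 went from 39.1, 50.9 and 51.3 CPM in the KO-labelled control mice to 113, 102 and 142 CPM in the KO-labelled IMQ mice, a log2 fold change of 1.33 ± 0.19 (adjusted p = 0.000772). All IMQ mice were above all controls, and 93.6% of genes had a lower log2 fold change. Klf4 went from 240.0, 257 and 253 CPM to 435, 476 and 431 CPM, with groups that lay far apart and a log2 fold change of 0.84 ± 0.13 (adjusted p = 0.0014). Gata3 went from 56.5, 113 and 102 CPM to 31.4, 23.3 and 22.5 CPM (log2 fold change -1.82 ± 0.27, adjusted p = 0.000893). KO-labelled control mouse 1 was the lowest of the Gata3 controls but still above every IMQ mouse.

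Notch1 was at 85.6, 183 and 129 CPM in the KO-labelled control mice and 80.7, 70.3 and 75.9 CPM in the KO-labelled IMQ mice. The groups did not overlap, although control mouse 1 came within a few CPM of the highest IMQ mouse, and the log2 fold change was -0.81 ± 0.25 (adjusted p = 0.0381). The call was kept in only 1 of the 6 fits that left out a single mouse of this comparison, and without control mouse 2 the log2 fold change was -0.50 (adjusted p = 0.154). Hes1 was lower in all KO-labelled IMQ mice, at 35.0, 36.5 and 33.2 CPM against 40.2, 65.1 and 46.4 CPM, with a log2 fold change of -0.53 ± 0.23 that did not pass (adjusted p = 0.105).

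Ovol1 (37.7 to 85.3 CPM in the controls and 77.6 to 99.2 CPM under IMQ) had a log2 fold change of 0.59 ± 0.33 (adjusted p = 0.21) and Prdm1 (29.3 to 46.0 and 43.6 to 56.6 CPM) one of 0.38 ± 0.18 (adjusted p = 0.143). For Trp63, which had risen in WT IMQ skin, the values were 208, 282 and 252 CPM in the KO-labelled controls and 217, 172 and 167 CPM under IMQ. Control mouse 1 lay within the IMQ range, and the log2 fold change of -0.41 ± 0.19 did not pass (adjusted p = 0.123). Zfp750 (81.3 to 190.3 and 96.1 to 129 CPM, log2 fold change -0.25 ± 0.28, adjusted p = 0.543) and Cebpa (138 to 178 and 147 to 167 CPM, 0.05 ± 0.15, adjusted p = 0.838) overlapped between the groups as well.

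The IMQ groups of the genotypes were then compared directly. Trp63, Grhl3 and Klf4 were lower in KO-labelled IMQ skin than in WT IMQ skin, and no member was called higher. The 3 called lower stand beside 2.6% of all genes tested. For the count of 0 higher, 2.19% of all genes were called higher by edgeR, 0 members were higher at an unadjusted p under 0.05 (12.5% of all genes were), and DESeq2 called 0. Ranges did not overlap for 4 members that were lower (17.3% of all genes) and for 0 that were higher (16%). The median log2 fold change of the 10 was -0.32, against -0.02 for all genes.

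Trp63 was at 349.6, 309.6 and 343 CPM in WT IMQ mice and 217, 172 and 167 CPM in KO-labelled IMQ mice, a log2 fold change of -0.85 ± 0.19 (adjusted p = 0.0353). Grhl3 was 1.86-fold lower at the fitted means (-0.90 ± 0.19, adjusted p = 0.0328), with its highest KO-labelled mouse at 142 CPM and its lowest WT mouse at 184 CPM. Klf4 was lower too (-0.54 ± 0.13, adjusted p = 0.0456), its highest KO-labelled mouse being at 476 CPM and its lowest WT mouse at 606 CPM. On the epithelial scale described below its value was above 0, though below the median of all genes there. For each of these 3 the groups lay apart. The fourth member without overlap was Zfp750, whose KO-labelled IMQ mice at 96.1 to 129 CPM lay below the WT IMQ mice at 154 to 187 CPM (-0.62 ± 0.28, adjusted p = 0.182).

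The remaining log2 fold changes between the IMQ groups were -0.32 ± 0.33 for Ovol1 (adjusted p = 0.55), -0.32 ± 0.18 for Prdm1 (0.26), -0.13 ± 0.23 for Hes1 (0.75), -0.00 ± 0.25 for Notch1 (0.995), 0.11 ± 0.26 for Gata3 (0.829) and 0.21 ± 0.15 for Cebpa (0.391). Both IMQ groups overlapped for each of them. The 3 calls were made by DESeq2 as well, but in the edgeR fits all 3 were lost when WT IMQ mouse 1, WT IMQ mouse 3, KO-labelled IMQ mouse 1, mouse 2 or mouse 3 was left out (adjusted p between 0.0605 and 0.202), and were kept without WT IMQ mouse 2. In the fits that lost them, only 0 to 3 of all genes tested were called lower, where the reported fit called 481. The unadjusted p of the 3 members there ran from 0.000444 to 0.0104. None of the 6 single-mouse fits turned their direction, with log2 fold changes from -0.98 to -0.77 for Trp63, -1.04 to -0.75 for Grhl3 and -0.59 to -0.44 for Klf4.

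Between the control groups no member was called in either direction by edgeR or by DESeq2. Each direction of the edgeR count stands beside 0.0054% of all genes. At an unadjusted p under 0.05, 3 members were higher in the KO-labelled control mice (2.65% of all genes) and 0 were lower (3.95%). These 3 were Prdm1 (0.45 ± 0.18, adjusted p = 0.706), Grhl3 (0.44 ± 0.19, adjusted p = 0.749) and Ovol1 (0.73 ± 0.33, adjusted p = 0.755). Ranges overlapped for all 10, so that 0 members were apart in the higher (4.19% of all genes) or the lower direction (5.18%). The Grhl3 controls, for example, ran from 27.9 to 42.5 CPM in WT mice and from 39.1 to 51.3 CPM in KO-labelled mice. The median of the 10 was 0.18, against 0.00 for all genes.

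Whether the response to IMQ itself differed between the labels was tested as an interaction, the response in KO-labelled skin minus that in WT skin. Grhl3 was the member called, with a smaller rise in KO-labelled skin (-1.34 ± 0.27, adjusted p = 0.0375). Beside this count of 1 lower, 0.783% of all genes were called lower, and beside the count of 0 higher 1.37% were called higher. At an unadjusted p under 0.05, 6 members were lower (11.9% of all genes) and 0 higher (12.3%), and DESeq2 called 0 higher. Of the 12 pan-epithelial markers described below, 10 were lower by the same rule. The 10 had a median of -0.64, against -0.02 for all genes. After Grhl3 came Trp63, whose log2 fold changes were 0.58 in WT and -0.41 in KO-labelled skin, with a difference of -0.998 ± 0.264 (adjusted p = 0.0673, and 0.0113 in DESeq2). The other 4 of these 6 were Ovol1 (-1.05 ± 0.46, adjusted p = 0.194), Zfp750 (-0.98 ± 0.40, 0.163), Prdm1 (-0.78 ± 0.25, 0.102) and Klf4 (-0.51 ± 0.19, 0.137).

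For Gata3 the difference was 0.14 ± 0.37 (adjusted p = 0.853), an error wide enough that a moderate difference was not detectable with 3 mice a group, while on the epithelial scale described below it was called at 1.04 (adjusted p = 0.0326). Notch1 (-0.22 ± 0.36, adjusted p = 0.746), Hes1 (-0.10 ± 0.32, 0.879) and Cebpa (0.31 ± 0.22, 0.393) likewise did not pass. The Grhl3 interaction was lost in 8 of 12 fits that left out a mouse, with adjusted p from 0.0677 to 0.118 (without WT control mouse 1 or 2, WT IMQ mouse 1 or 3, KO-labelled control mouse 2 or 3, or KO-labelled IMQ mouse 1 or 2), and its log2 value ran from -1.51 to -1.20 over the 12. In the fits that lost it, 0 to 45 of all genes tested were called lower, where the reported fit called 145. The comparisons share groups with one another, so their values are given side by side only.

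**Figure D2:**
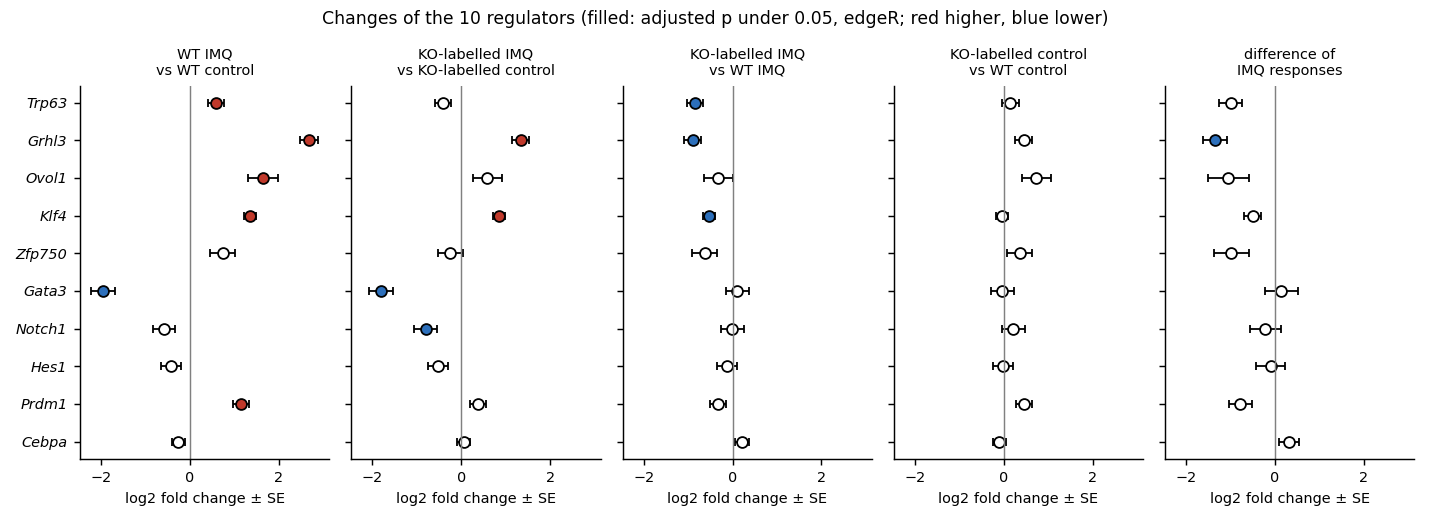
Points are the log2 fold change of each regulator on the x axis with its SE as the bar, 1 row per regulator and 1 panel per comparison; filled points passed the adjusted p of 0.05 (red higher, blue lower). Grhl3 (2.68 and 1.33) and Klf4 (1.35 and 0.84) rose and Gata3 (-1.95 and -1.82) fell in both IMQ comparisons, while between the IMQ groups Trp63 (-0.85), Grhl3 (-0.90) and Klf4 (-0.54, a direction that turned on the scale of epithelial markers, as did that of Trp63 in WT skin) were lower in KO-labelled mice. On that scale Klf4 lay below the median of 0.68 for all genes between the IMQ groups, and Trp63 above that of -1.16 in WT skin.

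Levels can be compared between genes only per length, here as mean CPM per kilobase of exon. In WT control skin Klf4 stood highest (83.9), then Cebpa (62.5), then Zfp750 (32.7), Trp63 (26.6), Hes1 (25.3) and Gata3 (23.3), whose neighbours overlapped in range, then Grhl3 (12.4), Ovol1 (10.3) and Notch1 (8.02), which overlapped as well, and last Prdm1 (5.09). In WT IMQ skin Klf4 was again highest (213), Grhl3 had moved from place 7 to place 2 (79.3), and Gata3 from place 6 to place 9 (6.01), just above Notch1 (5.33). Grhl3 did not overlap its neighbours there. The KO-labelled IMQ mice had Klf4 (147), Cebpa (60.4) and Grhl3 (42.6) as the top 3, with Grhl3 overlapping Zfp750 (35.2) in range. In the KO-labelled controls Klf4 (82.1) stood apart at the top and the next 7 genes formed a chain of overlapping neighbours, from Cebpa (58.3) to Grhl3 (16.9). Differences in read coverage along the transcripts may enter these values, and their part was not tested.

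Within the control groups the members moved together from mouse to mouse. WT control mouse 2 was the lowest of its group for 8 members, all but Klf4 and Cebpa, and KO-labelled control mouse 1 for 9 members, all but Cebpa. For Zfp750, WT control mouse 2 was at 71.3 CPM beside 119 and 127 CPM, and KO-labelled control mouse 1 was at 81.3 CPM beside 190.3 and 135 CPM. The same mice had the lowest summed level of 16 hair follicle markers in their groups, at 522 CPM beside 4475 and 3223 CPM in WT, and at 973 CPM beside 12909 and 5543 CPM in KO-labelled mice. They also had the lowest summed level of 12 pan-epithelial markers, at 3933 CPM beside 5543 and 6760 CPM, and at 4555 CPM beside 7466 and 6551 CPM. Under IMQ the follicle list summed to 1295 to 1398 CPM in WT mice and 393 to 811 CPM in KO-labelled mice. A few abundant genes can carry such a sum, and the list holds Krt17, which the study named as a marker of keratinocyte proliferation. By the list's mean log2 CPM, WT IMQ mice were at -0.03, 0.04 and 2.54, against 6.35, 0.67 and 5.88 in WT controls. KO-labelled IMQ mice were at -0.17, 0.93 and -0.44, against 3.19, 8.60 and 7.22 in their controls. The part of the follicle in the members' spread was not tested.

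**Figure D3:**
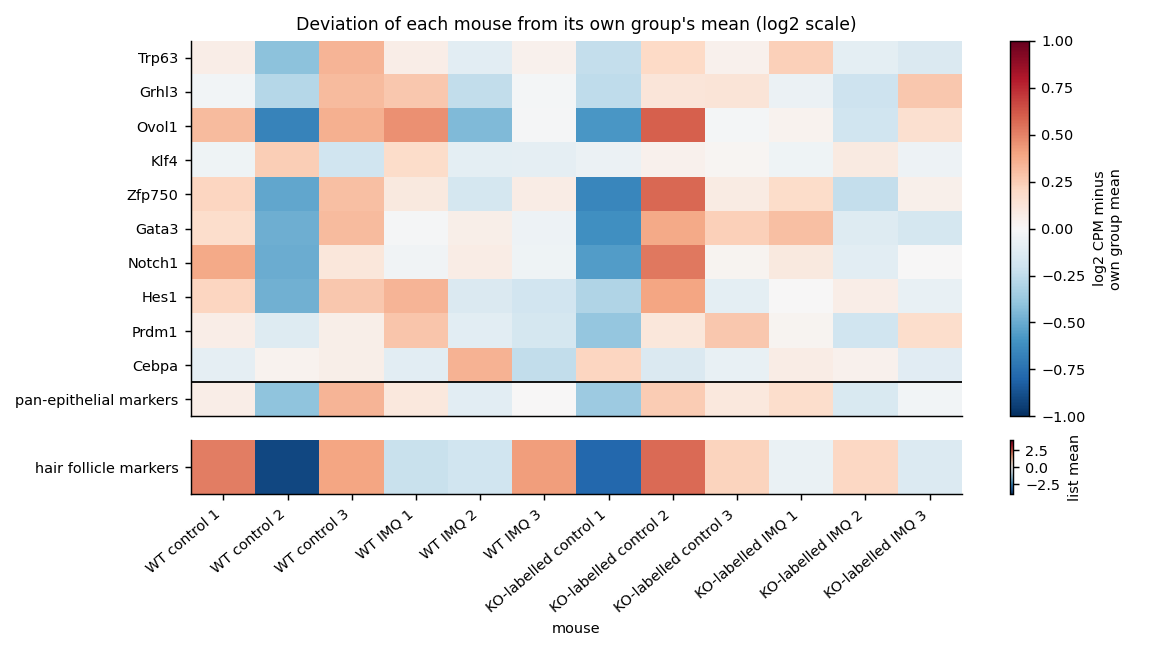
Colours give each mouse's deviation from its own group's mean on the log2 scale (red above, blue below; the hair follicle row has a wider scale of its own), with mice on the x axis and the regulators and marker lists as rows. WT control mouse 2 and KO-labelled control mouse 1 lie lowest in their groups for 8 and 9 of the 10 regulators, for the pan-epithelial markers and for the hair follicle markers.

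Without these 2 mice, an alternative chosen after seeing the data, more of the falls passed the test. The 2 mice were left out because they were the lowest controls for most of these same members. Deeper falls and a smaller spread among the controls partly follow from that choice, so the values below are descriptions only. In WT skin 3 members were then called lower instead of 1 (13.1% of all genes tested were), Gata3 (-2.17), Notch1 (-0.81 ± 0.14, adjusted p = 0.00218) and Hes1 (-0.64 ± 0.18, adjusted p = 0.0208), and 5 were called higher (12.8%), Zfp750 (0.50 ± 0.17, adjusted p = 0.0482) in place of Trp63 (0.40 ± 0.15, adjusted p = 0.0757). In KO-labelled skin 5 were called lower instead of 2 (12.7%), with Trp63 (-0.53 ± 0.15, adjusted p = 0.0215), Zfp750 (-0.52 ± 0.17, adjusted p = 0.038) and Hes1 (-0.68 ± 0.18, adjusted p = 0.0157) beside Gata3 and Notch1. The interaction then held 3 lower calls instead of 1 (1.05%), Grhl3 (-1.32 ± 0.27, adjusted p = 0.0333), Trp63 (-0.93 ± 0.21, adjusted p = 0.0483) and Zfp750 (-1.03 ± 0.24, adjusted p = 0.05 as rounded, just inside the threshold). A control group of 2 mice remained in each of these fits.

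Most of the members are best known from epithelial cells, and epithelial markers moved with the groups. Of 12 pan-epithelial markers (such as Cdh1 and Dsp of the cell junctions and the basal keratin Krt5), 9 rose in WT IMQ skin, with a median log2 fold change of 1.22, led by Sfn (2.81 ± 0.36, adjusted p = 0.000211), Pkp1 (1.85 ± 0.24, adjusted p = 2e-04) and Krt5 (1.66 ± 0.23, adjusted p = 0.000362). In KO-labelled skin 6 rose and 2 fell (median 0.51), and between the IMQ groups 2 were lower in KO-labelled mice, Itgb4 (-0.61 ± 0.15, adjusted p = 0.0426) and Itga6 (-0.54 ± 0.14, adjusted p = 0.0487), with a median of -0.67 for the list. The summed level was 3933 to 6760 CPM in WT control, 13469 to 16423 CPM in WT IMQ, 4555 to 7466 CPM in KO-labelled control and 7933 to 10765 CPM in KO-labelled IMQ mice. None of the 12 was at 0 in any mouse.

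Each member was therefore also expressed relative to the mean log2 CPM of these 12 markers in the same mouse and tested with limma. On that scale the median of all genes tested moved to -1.16 in WT and -0.29 in KO-labelled skin, and to 0.68 between the IMQ groups, so that a member at that median had changed as genes in general had, and most genes were called lower in WT skin. By construction, a gene that rose less than the marker mean is below 0 on this scale, so a turned sign alone is no separate result. Grhl3 rose on this scale too, with log2 changes of 1.54 ± 0.20 in WT (adjusted p = 3.66e-05) and 1.09 ± 0.20 in KO-labelled skin (adjusted p = 0.00204), and it was the 1 member called higher in each (2.85% of all genes tested in WT and 3.87% in KO-labelled skin were), where the scale of all RNA had 5 and 2. Gata3 fell by 3.05 in WT (adjusted p = 8.12e-08) and by 2.01 in KO-labelled skin (adjusted p = 7.67e-06), below the median of all genes in both. Klf4 (0.21 ± 0.27, adjusted p = 0.481, in WT) and Prdm1 (0.00 ± 0.21, adjusted p = 0.986) had changes relative to the epithelial markers that were within about 1 SE of 0.

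The sign of 2 members turned in WT skin: Trp63 was lower by 0.52 relative to the epithelial markers (-0.52 ± 0.18, adjusted p = 0.017) and Zfp750 had a change of -0.37 ± 0.20 (adjusted p = 0.105), both above the median of all genes on this scale. In the 3 WT control mice Trp63 lay at -0.44, -0.44 and -0.43 log2 units from the marker mean, including the mouse with low values of nearly all members. In all, 5 members were called lower relative to the markers in WT skin, namely Trp63, Gata3, Notch1 (-1.68), Hes1 (-1.55) and Cebpa (-1.42), a smaller share than the 72.5% of all genes called lower there. In KO-labelled skin 4 were, namely Trp63 (-0.66), Gata3, Notch1 (-0.98) and Hes1 (-0.74), beside 11.2% of all genes.

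Between the IMQ groups none of the 3 differences called on the scale of all RNA was called relative to the epithelial markers. Trp63 was at -0.17 ± 0.18 (adjusted p = 0.459), Grhl3 at -0.20 ± 0.20 (adjusted p = 0.399), and Klf4 had turned to 0.16 ± 0.27 (adjusted p = 0.653). All 3 lay below the median of 0.68 for all genes on this scale. On this scale 4 members were called higher in KO-labelled IMQ mice, Gata3 (0.78 ± 0.19, adjusted p = 0.018), Notch1 (0.69 ± 0.21, adjusted p = 0.0279), Hes1 (0.58 ± 0.20, adjusted p = 0.0394) and Cebpa (0.92 ± 0.29, adjusted p = 0.0297). This count stands beside 34.9% of all genes called higher and a median of 0.68 for all genes, and that of 0 lower beside 0.221%. In the interaction Gata3 (1.04 ± 0.27, adjusted p = 0.0326) and Cebpa (1.24 ± 0.41, adjusted p = 0.0448) were called higher, beside 22.1% of all genes and a median of 0.87. No member was called lower there (0.157% of all genes), and the Grhl3 interaction was -0.45 ± 0.28 (adjusted p = 0.203). A different number of epithelial cells and a different level per cell cannot be told apart here.

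**Figure D4:**
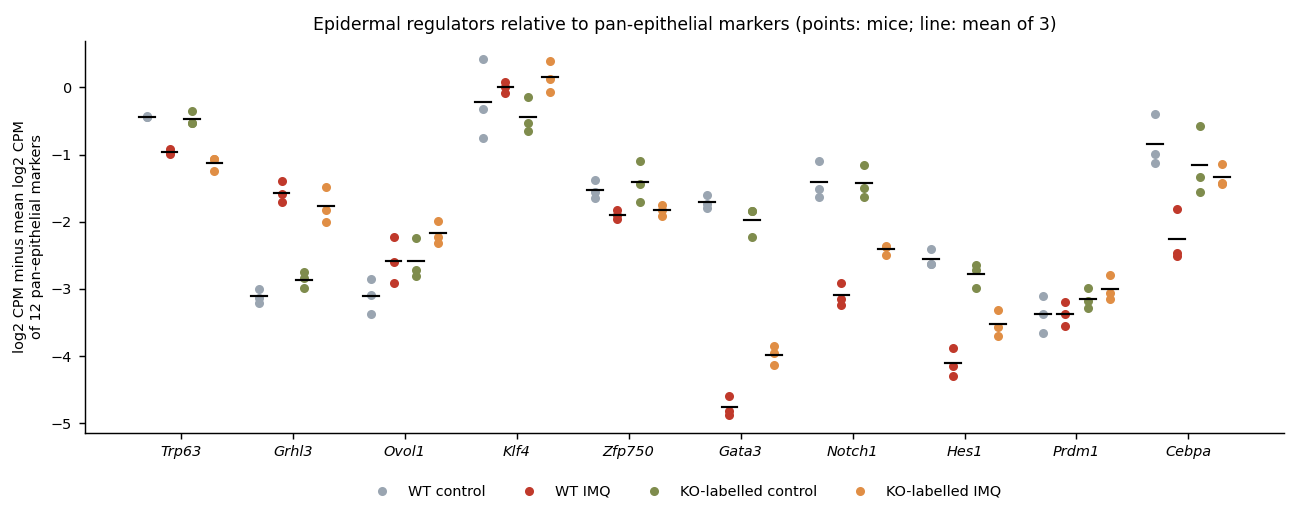
The y axis is each regulator's log2 CPM minus the mean log2 CPM of 12 pan-epithelial markers in the same mouse, with regulators on the x axis; points are mice, coloured by group, and lines are means of 3. Grhl3 stands higher in both IMQ groups than in the controls, Gata3 lower, and for Trp63 the WT IMQ mice lie below the WT control mice, the reverse of its order on the CPM scale.

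The members belong to wider groups of genes. Of 38 other epidermal transcription factors, 13 rose and 2 fell in WT IMQ skin (median 0.32), and 14 rose and 5 fell in KO-labelled skin (median 0.14). Relative to the epithelial markers 4 of the 38 were called higher and 19 lower in WT skin, where 2.85% of all genes were higher and 72.5% lower. The largest rises in WT were Fosl1, a subunit of AP-1 (4.66 ± 0.42, adjusted p = 1.63e-05), and the epithelial Ets factors Elf3 (3.58 ± 0.54, adjusted p = 0.000663) and Ehf (3.26 ± 0.22, adjusted p = 2.18e-06). Gata6, a factor of the sebaceous duct (-2.15 ± 0.50, adjusted p = 0.0087), and Tfap2b (-1.03 ± 0.25, adjusted p = 0.0106) fell. Between the IMQ groups 3 of the 38 were lower in KO-labelled mice, Tfap2c (-0.76 ± 0.19, adjusted p = 0.0476), Klf5 (-0.76 ± 0.17, adjusted p = 0.037) and Bhlhe40 (-0.72 ± 0.13, adjusted p = 0.0219). These calls held in 6, 8 and 8 of 15 alternatives other than the epithelial scale, on which the differences were -0.07, -0.08 and -0.04, none of them called. The interaction was called for Ehf (-1.49 ± 0.28, adjusted p = 0.0311) and for Bhlhe40 (-0.81 ± 0.18, adjusted p = 0.0436), and held in 12 and 8 of 21 other alternatives. On the epithelial scale the Bhlhe40 interaction was 0.08, below the median of 0.87 for all genes.

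Around Notch1 and Hes1, 7 of 28 other Notch pathway genes tested rose and 3 fell in WT IMQ skin (median 0.14), and 9 rose and 1 fell in KO-labelled skin (median 0.27). The risers in WT were led by Dll4, a ligand best known from endothelium (0.93 ± 0.22, adjusted p = 0.00821), Notch4, an endothelial receptor (0.80 ± 0.20, adjusted p = 0.0109), and Rfng, a glycosyltransferase that modifies the receptors (0.79 ± 0.15, adjusted p = 0.0029). On the epithelial scale all 3 were below 0 (-0.24, -0.33 and -0.36, none called) but above the median of -1.16 for all genes. On that scale 25 of the 28 were called lower and 0 higher in WT skin (72.5% and 2.85% of all genes), 2 lower in KO-labelled skin, and 16 higher between the IMQ groups (34.9% of all genes). Those that fell were the target genes Hey2 (-1.83 ± 0.60, adjusted p = 0.0414) and Heyl (-1.66 ± 0.54, adjusted p = 0.0386), whose groups overlapped and whose calls held in 7 and 8 of 16 alternatives, and Lfng, of the same family as Rfng (-1.03 ± 0.20, adjusted p = 0.00271). Of 8 endothelial markers 3 rose in WT and 6 in KO-labelled skin, with summed levels of 339 to 453 CPM in WT control, 444 to 719.5 CPM in WT IMQ, 267 to 482 CPM in KO-labelled control and 849 to 863 CPM in KO-labelled IMQ mice. Their part in the Notch genes was not tested. Among 19 chromatin partners of these factors 2 rose and 3 fell in WT, such as the demethylase Kdm6b (0.82 ± 0.16, adjusted p = 0.00285, and -0.30 on the epithelial scale, above the median of all genes there) and the genome organiser Satb1 (-0.89 ± 0.21, adjusted p = 0.00973), and 2 rose and 3 fell in KO-labelled skin. On the epithelial scale 18 of the 19 were lower in WT skin and 3 in KO-labelled skin.

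Other lists hold the genes that build the layers. Of 36 differentiation effector genes 27 rose and 2 fell in WT IMQ skin (median 1.79), among them Sprr1b (7.09 ± 0.53, adjusted p = 5.65e-06) and Rptn (5.54 ± 0.26, adjusted p = 3.64e-07), both components of the cornified envelope, and the crosslinking enzyme Tgm3 (4.40 ± 0.69, adjusted p = 0.000928). Flg2 (-2.77 ± 0.39, adjusted p = 0.000467) and Elovl4, which makes very long chain fatty acids for the barrier (-0.94 ± 0.29, adjusted p = 0.0312), fell. In KO-labelled skin 24 rose and 3 fell (median 1.19). Relative to the epithelial markers 17 of the 36 were still higher and 6 lower in WT skin (median 0.67), and 22 higher and 4 lower in KO-labelled skin (median 0.95), beside 2.85% higher and 72.5% lower of all genes in WT and 3.87% and 11.2% in KO-labelled skin. Tgm1, the main crosslinking enzyme of the envelope, was lower in KO-labelled IMQ than in WT IMQ mice (-0.97 ± 0.21, adjusted p = 0.0347) and had a smaller rise (interaction -1.57 ± 0.30, adjusted p = 0.0311), with values of -0.29 and -0.65 on the epithelial scale that were not called, while Abcg1, a sterol transporter, was higher (0.63 ± 0.16, adjusted p = 0.0445, interaction 0.98 ± 0.22, adjusted p = 0.045). The calls between the IMQ groups held in 8 (Tgm1) and 7 (Abcg1) of 15 alternatives, and the interactions in 11 and 8 of 21. The Elovl4 call held in 9 of 16.

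Of 19 basal effector genes, 3 of which (Pkp1, Itgb4 and Itga6) are also pan-epithelial markers, 12 rose and 3 fell in WT (median 1.14), with Krt14 at 3.30 ± 0.26 (adjusted p = 6.4e-06) and the stem cell keratin Krt15 at -2.23 ± 0.44 (adjusted p = 0.00355), and 9 rose and 4 fell in KO-labelled skin (median 0.57). On the epithelial scale 5 of the 19 were higher and 6 lower in WT skin, and Itgb4 and Itga6, which were lower in KO-labelled IMQ than in WT IMQ mice, turned to 0.09 and 0.15. Pkp1, Itgb4 and Itga6 are part of the marker mean that defines this scale. Their values on it are drawn toward 0 by construction, and the turn of Itgb4 and Itga6 is no separate result. The lower calls of Itgb4 and Itga6 on the scale of all RNA held in 9 and 4 of 15 other alternatives. All these lists were chosen with earlier results of the data known, and their counts are descriptions. On the scale of all RNA they stand beside 14.2% of all genes called higher and 14.3% lower in WT skin, and 14.1% and 11.2% in KO-labelled skin.

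**Figure D5:**
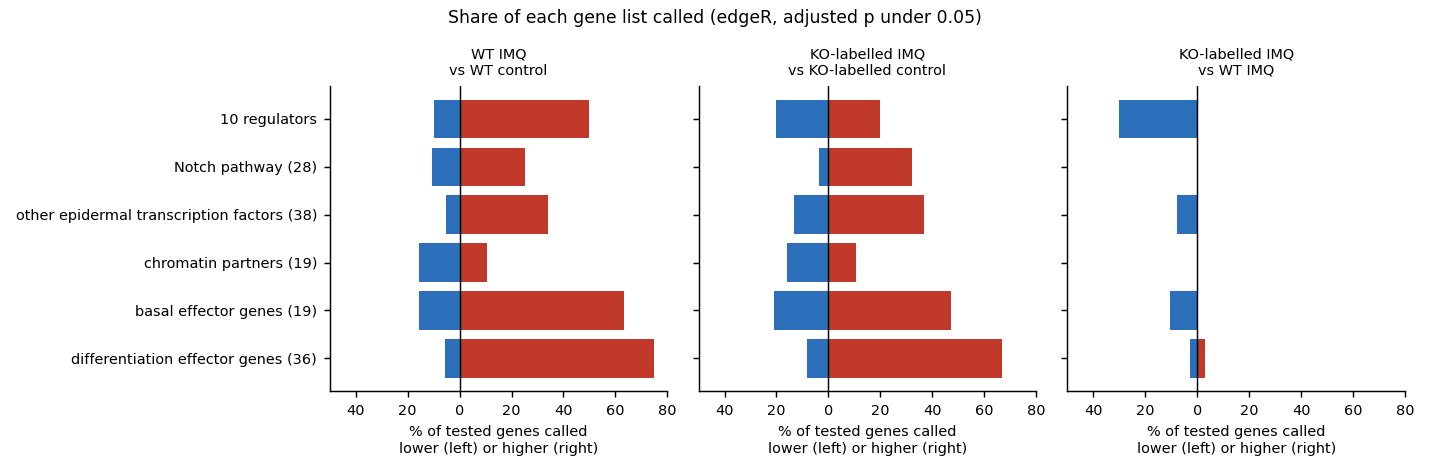
Bars give the percent of each gene list's tested genes called lower (to the left of 0) or higher (to the right) by edgeR at an adjusted p under 0.05, with 1 panel for each of the 3 comparisons among IMQ groups and their controls. In WT IMQ skin 27 of 36 differentiation effector genes and 12 of 19 basal effector genes were called higher, beside 5 of the 10 regulators and 14.2% of all genes.

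Other cell types of the skin moved with the groups as well, and their markers matter for members that such cells also express. Myeloid markers, relevant to Cebpa, Klf4 and Prdm1, summed to 1399 to 4640 CPM in WT control, 9397 to 15255 CPM in WT IMQ, 1247 to 2430 CPM in KO-labelled control and 10209 to 17332 CPM in KO-labelled IMQ mice, and 5 of 14 rose in WT and 14 of 14 in KO-labelled skin. The widest rises in WT were those of S100a9 (9.40 ± 0.65) and S100a8 (9.25 ± 0.81). The highest value of any myeloid marker in any mouse was 5919 CPM, so single genes can carry these sums. The median log2 fold change of the 14 was 0.57 in WT and 2.11 in KO-labelled skin. Adipocyte markers, relevant to Cebpa, fell for 4 of 12 in WT, with a summed level of 5139 to 7964 CPM in the controls and 2473 to 5769 CPM under IMQ, and for 3 of 12 in KO-labelled skin (5377 to 10359 and 5309 to 7130 CPM). Sebocyte markers fell for 7 of 9 tested in WT (5369 to 9282 and 1594 to 4959 CPM) and 5 of 9 in KO-labelled skin (7910 to 11057 and 2017 to 4551 CPM). Fibroblast markers fell for 4 of 9 in WT and rose for 5 of 9 in KO-labelled skin, and 3 of 9 were higher in KO-labelled IMQ than in WT IMQ mice, with summed levels of 10520 to 11216 CPM in WT IMQ and 20530 to 21357 CPM in KO-labelled IMQ mice. Thy1, among the falls in WT, is also on the T and innate lymphoid cell list. Skeletal muscle markers fell for 6 of 8 in WT and 4 of 8 in KO-labelled skin. B and plasma cell markers, relevant to Prdm1, rose for 2 of 6 tested in WT (Cd79b, and Sdc1, which keratinocytes also express) and 1 of 6 in KO-labelled skin, and summed to 555 to 685 CPM in WT control, 917 to 1328 CPM in WT IMQ, 629 to 1063 CPM in KO-labelled control and 808 to 1178 CPM in KO-labelled IMQ mice. No marker of these lists was at 0 in every mouse, and their part in the members' results was not tested.

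For each member the 3 genes with the most similar pattern were found by Pearson correlation of log2 CPM over the 12 mice. These mice fall into 4 groups, so that the correlations mostly reflect differences between the groups, and they are given as descriptions. Grhl3 was closest to Ltb4r2 (r = 0.997), Pla2g4e (0.997) and Tgm1 (0.995), and Klf4 to Ndel1 (0.992), Phlda1 (0.981) and Arhgef10l (0.980). Gata3 was closest to Adgrl3 (0.984), Bhlhb9 (0.983) and Zmym4 (0.982), and Notch1 to Slc30a1 (0.984), Ccdc112 (0.978) and Slc39a10 (0.978). The lists for Trp63 (Polb 0.967, Ap1m2 0.960, Lrrc8e 0.956), Ovol1 (Map4k4 0.973, Phactr4 0.972, Gsdma 0.959) and Zfp750 (Nectin4 0.979, Crybg1 0.971, Rars 0.970) were slightly less tight. Prdm1 was closest to Nipal4 (0.970), Ptk2b (0.970) and Tgfa (0.968), Hes1 to Sh3rf1 (0.953), Lbr (0.953) and Hs2st1 (0.947), and Cebpa to Iscu (0.961), Cox4i1 (0.958) and Bcat2 (0.942).

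Among the members themselves the deviations from the group means over the 12 mice separated most of the set from Klf4 and Cebpa. The within-group correlation was 0.92 for Ovol1 with Zfp750, 0.92 for Zfp750 with Notch1, 0.89 for Gata3 with Notch1 and 0.87 for Trp63 with Zfp750. Klf4 had -0.48 with Trp63 and -0.21 with Grhl3, although over all 12 mice Klf4 and Grhl3 had 0.94. Cebpa was negative with each of the other 9 (from -0.63 with Ovol1 to -0.19 with Klf4). The 10 values of a mouse come from 1 library, so that its depth and its content of follicle and epithelium, which differed between mice, enter all of them, and no p is given.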

How the data were processed

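Back skin of 12 mice (4 groups of 3, by the sample labels) was sequenced as bulk RNA with paired 150-base reads. The authors deposited 1 table of raw read counts per gene for all libraries, with no normalization. The submitters' processing notes name HISAT and the build mm8 without saying what each was used for, and the counting tool, its strand setting and the annotation are not given in the sources used here. Of 56923 gene identifiers, 52073 (91.5%) matched GENCODE M21 (GRCm38), which gave symbols and positions; the rest held 0.567% of all counts. Library totals were 16448226 to 28592110 counts, and 2 column names that repeat a library name were matched by that name. No 2 libraries of the same group agreed within sampling noise.

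Genes were kept by edgeR's filterByExpr (minimum count 10, minimum total 15), which left 18529. All 12 mice entered 1 fit of edgeR 4.0.16 (R 4.3.3) with TMM scaling, the quasi-likelihood test and Benjamini-Hochberg adjustment over all genes tested, and a gene was called at an adjusted p under 0.05. The study named DESeq2, which served as an alternative (1.42.0). Levels are TMM-scaled CPM, and log2 CPM used a prior count of 2. Members relative to the 12 pan-epithelial markers were tested with limma 3.58.1. Scripts were tested on simulated data. Promoters came from RefSeq (GRCm38.p6). Figures were drawn with matplotlib 3.10.9.

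The members and lists were chosen with earlier results of these data known. All members were named, and of each other list up to 3 genes with the widest called rises and falls in WT IMQ skin, and up to 3 each way called between the IMQ groups or in the interaction; Cdh1 and Dsp are named only as examples of their list, and of marker lists only some of the genes this rule gives are printed. Similar genes were the 3 with the highest Pearson correlation over 12 mice. Alternatives were RLE size factors, library totals alone, DESeq2, the compared mice only, no filter or 10 counts in every mouse, the replicate number as a block, each mouse left out, and the pan-epithelial scale. A correction for GC content (known for 98.2% of genes tested), with and without the block, and the fit without WT control mouse 2 and KO-labelled control mouse 1 were added after seeing the data. The same replicate number in different groups marks different animals.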

Additional observations from a re-analysis of the deposited data

Results flagged for a closer look

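The response of Grhl3 to IMQ differed between the genotype labels by a test of the difference itself: the log2 fold change in KO-labelled skin minus that in WT skin was -1.34 ± 0.27 (SE, adjusted p = 0.0375, edgeR's quasi-likelihood interaction over 12 mice). The separate log2 fold changes were 2.68 in WT and 1.33 in KO-labelled skin. The fitted difference was -0.45 (adjusted p = 0.203) relative to the pan-epithelial markers, whose own median interaction was -0.86 with 0 of 12 called by edgeR. At an unadjusted p under 0.05, 10 of the 12 were lower (11.9% of all genes were), and all 12 were below 0. By the same rule 8 of 19 basal and 15 of 36 differentiation effector genes were lower. No other result met the criteria for a closer look.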

How the results depend on the processing

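The 10 counts of called members were recomputed under 178 alternatives, and 133 stayed within 1.5 times. With library totals alone, 3 members were called lower in WT and 4 in KO-labelled skin, instead of 1 and 2. With no filter, 1 was lower in KO-labelled skin and 2 in the interaction, and DESeq2 also called 2 there. With the replicate block, alone or with the GC correction, 1 was lower in KO-labelled skin and 0 between the IMQ groups and in the interaction, Grhl3 missing at adjusted p = 0.0587; same-numbered mice did not deviate together (correlations -0.555 to 0.199). On the pan-epithelial scale 1 member was higher and 5 lower in WT skin, 1 higher and 4 lower in KO-labelled skin, 4 higher and 0 lower between the IMQ groups, and 2 higher (Gata3 and Cebpa) and 0 lower in the interaction, where all genes moved too (72.5% lower in WT skin, 34.9% higher between the IMQ groups and 22.1% higher in the interaction). Leaving out 1 mouse gave 4 to 5 higher and 1 to 3 lower in WT skin, 2 higher and 1 to 2 lower in KO-labelled skin (5 without both low control mice), 0 to 3 lower between the IMQ groups and 0 to 3 lower in the interaction. The fits with 0 lower between the IMQ groups called only 0 to 3 of all genes lower, where the reported fit called 481. With the block alone, 59 of all genes were called lower between the IMQ groups and 3 in the interaction. Grhl3, Klf4 and Gata3 were called in both IMQ comparisons, and Ovol1 and Prdm1 in WT skin, in all 6 of those fits.

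Signs turned in 51 of 890 alternatives of single members, all but those of Trp63 in WT skin and Klf4 between the IMQ groups for values not called in the reported fit. Library totals gave -0.15 for Cebpa in KO-labelled skin, and 0.015 for Klf4, 0.012 for Gata3 and 0.013 for Hes1 between the controls. The GC correction gave -0.10 for Cebpa, with the block too. Notch1 between the IMQ groups was 0.0031 with RLE factors, 0.0089 with totals, 0.013 with no filter, 0.0096 with the compared mice and 0.0057 with DESeq2. The pan-epithelial scale gave, in WT skin, -0.52 for Trp63 and -0.37 for Zfp750; in KO-labelled skin, -0.18 for Cebpa; between the IMQ groups, 0.41 for Ovol1, 0.16 for Klf4, 0.065 for Zfp750, 0.69 for Notch1, 0.58 for Hes1 and 0.37 for Prdm1; between the controls, -0.035 for Trp63 and -0.014 for Notch1; and in the interaction, 0.38 for Klf4, 0.70 for Notch1, 0.81 for Hes1 and 0.15 for Prdm1. With mice left out, values ran from -0.022 to 0.17 for Cebpa and -0.52 to 0.072 for Zfp750 in KO-labelled skin; from -0.059 to 0.20 for Gata3, -0.23 to 0.061 for Hes1 and -0.050 to 0.049 for Notch1 between the IMQ groups; from -0.0066 to 0.33 for Trp63, -0.13 to 0.15 for Klf4, -0.22 to 0.22 for Gata3, -0.090 to 0.45 for Notch1 and -0.25 to 0.11 for Hes1 between the controls; and from -0.11 to 0.34 for Gata3, -0.45 to 0.089 for Notch1 and -0.24 to 0.13 for Hes1 in the interaction. The cause was not tested.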
